A study of Caenorhabditis elegans with 93 samples.

Results

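The set described here is 229 genes of Caenorhabditis elegans embryos whose RNA was higher after generation 2 of a laboratory propagation experiment than at its start. Wild-type N2 hermaphrodites were split into lineages A, B and C, which were grown without treatment at 20 degrees with 2 animals founding each generation, and embryos were collected by bleaching. The tested libraries are those of generations 4 to 20 (later libraries, 25), and they are set against those of generation 0, collected before the bottleneck began, and generation 2 (early libraries, 6). A gene entered the set when its mean normalized count over all 31 RNA libraries was at least 10 and the log2 ratio of its mean in later to its mean in early libraries, with 1 added to each mean, was at least 1 (2-fold) in each of the 3 lineages. Of 27790 genes in the table, 16714 passed the level filter and 264 met the ratio (1.58%), of which 35 were set aside because their names start with cyp-, clec-, nhr-, ugt-, pgp-, fbx, irg- or col- (13 of them clec-, C-type lectin genes). The members were chosen by their measured RNA values in this contrast, so the ratios and levels of later against early libraries are given as a description, without a test. C01B4.7 and Y19D10A.4 have the same coordinates and the same RNA values in the table, so the 229 names stand for 228 loci.

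Each lineage and generation collected gave at most 1 library per assay, made from a pool of embryos. Libraries of 1 lineage are successive generations of the same animals. The p-values below therefore measure the spread among such libraries. ATAC-seq and small RNA libraries came from the same collections, apart from lineage C. There ATAC-seq covered generation 14 but not 8, and the RNA and small RNA libraries covered 8 but not 14. In bulk embryos, more cells of a type and more RNA per cell cannot be told apart.

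By roles assigned after the values were seen, 6 of the members act in B12-related metabolism, 5 in amino acid and 4 in lipid metabolism. In C. elegans, propionate from the breakdown of branched-chain amino acids, odd-chain fatty acids and methionine is cleared by a pathway that needs vitamin B12, and when B12 is scarce a second route, the propionate shunt, is transcriptionally switched on, with the acyl-CoA dehydrogenase gene acdh-1 as its best known reporter. B12 is also the cofactor of methionine synthase in the methionine cycle, whose genes respond to a shortage as well. Other members belong to families expressed in the intestine or epidermis that worms use against microbes, such as lysozymes, or to large nematode families of chemoreceptors and small secreted peptides.

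The RNA libraries held 42039288 to 48142198 reads counted on genes in later libraries and 43661492 to 49318096 in early libraries, so depth did not separate the groups. Other transcripts did differ between them: by limma 23.9% of all 16714 tested genes were higher in later libraries and 24.6% lower. All 11 maternal embryo markers (such as oma-2 and pos-1, RNAs loaded by the mother and degraded in the embryo) were lower in later libraries by limma, with a summed level of 26694 to 47579 in later and 40513 to 95998 in early libraries. The summed level of 13 heat shock genes was 354866 to 833398 in the 3 generation 2 libraries against 11707 to 19515 in the 3 generation 0 libraries, and among later libraries it was highest at generation 10 (140892 to 193502). None of the 8 late embryo cuticle genes passed the test, 3 of 7 intestine markers were higher and 1 lower, and of 10 sperm markers only spe-9 passed the level filter. Of 6 body wall muscle markers 3 were higher and none lower (summed median 228247 in later and 161433 in early libraries), of 6 neuron markers 4 were higher and 2 lower, of 6 yolk and adult soma genes 2 were higher and none lower, and of 9 early zygotic markers 4 were lower and none higher. The part of these markers or of the heat shock genes in the difference between later and early libraries was not tested, and both stand beside the results below.

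The lowest of a member's 3 lineage ratios had a median of 1.43 on the log2 scale, was under 1.5 for 130 members, at least 2 for 43 members and at least 3 for 10 members. The median ratio over members was 1.84 in lineage A, 1.63 in lineage B and 1.90 in lineage C, and lineage B gave the smallest of the 3 ratios for 113 members. Together the members took 0.393% to 0.588% of the normalized total in later libraries and 0.101% to 0.224% in early libraries. In 101 members (44.1%) all 25 later libraries lay above all 6 early libraries. Among all tested genes 1.29% showed this pattern, which the rule itself favours. Statements below that groups did not overlap stand against these shares. The members' own levels were low: their mean over all libraries had a median of 77.5 normalized counts, against 611 for all tested genes, and 51 members were at 0 in at least 1 early library.

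**Figure D1:**
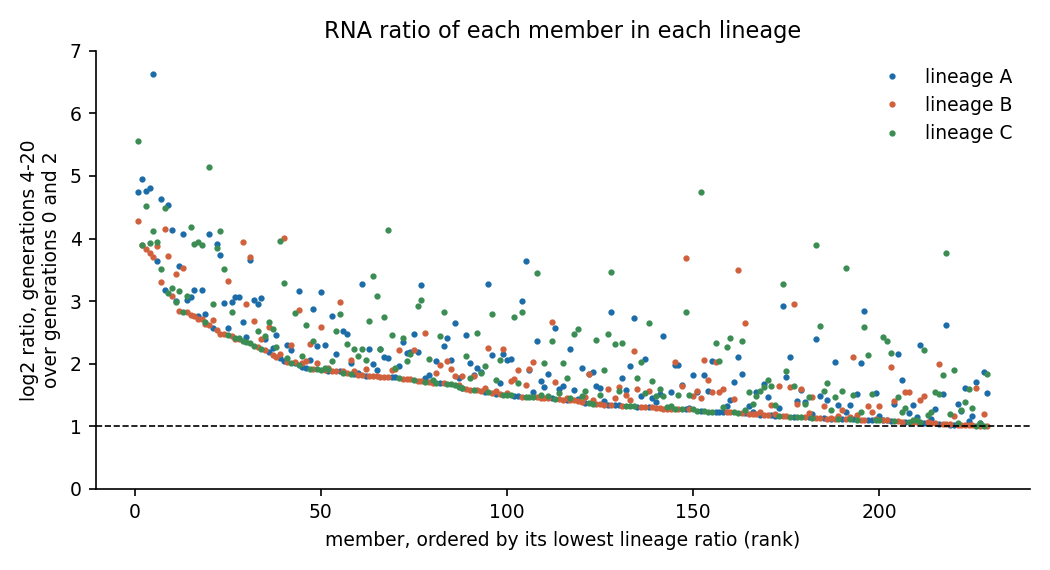
Each of the 229 members is plotted at its rank (x axis) with its log2 ratio of later over early libraries in each lineage (y axis, 3 points a member), and the dashed line is the threshold of 1. The lowest ratios run between 1.002 and 4.28, and single lineages reach 6.62.

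The threshold cut through a continuous range. Just inside it were ZC132.10, nspe-2 and K08D8.7 with lowest ratios of 1.0021, 1.0027 and 1.0045, and just outside were kreg-1, fat-2 and dod-20 with 0.994, 0.990 and 0.984. For 40 members, leaving out some 1 later library would bring a lineage's ratio under the threshold. Furthest under were pals-3, whose ratio in lineage A was 0.20 without generation 16, and Y37H2A.14, with 0.35 without the same library.

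C25H3.10 had the highest lowest ratio of the set. It lies on chromosome II at 5696498 to 5698969 (WBcel235), next to another member, C25H3.1 (5699324 to 5701435), which is transcribed from the other strand. Its normalized count was 161 at the lowest, 458 at the median and 673 at the highest in later libraries, against 6.56 to 26.8 in early libraries, where the 3 generation 2 libraries had 8.32, 24.8 and 11.05 and the 3 generation 0 libraries 26.8, 16.44 and 6.56. Every later library was thus far above every early one, with log2 ratios of 4.74 in lineage A, 4.28 in B and 5.56 in C. C25H3.1 had lower counts, 7.78 to 93.1 in later and 0 to 6.24 in early libraries, also without overlap.

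F32A7.8, on chromosome I at 14838917 to 14839138, is a short gene that behaved alike. It had 335, 866 and 1527 normalized counts (lowest, median, highest) in later libraries, against 13.1 to 64.4 in early libraries, so the groups did not overlap. Its log2 ratio was 4.76 in lineage A, 3.84 in B and 4.52 in C.

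Other members with large ratios had few counts in early libraries. Y39B6A.27, a protein-coding gene on chromosome V, had 15.3 to 138 normalized counts in later libraries and 0 in all 3 generation 2 libraries, and its ratio in lineage A, 6.62, was the highest single ratio of the set. The non-coding gene Y39B6A.84 overlaps it on the other strand and had 4.58 to 40.7 in later libraries, against 0 in 5 of the 6 early libraries. The counting did not use strand, so reads of these 2 genes cannot be told apart. C49G7.3, which the current annotation calls phat-7, had 9.51 to 128 in later and 0 to 4.37 in early libraries, and Y49F6B.12 had 23.8 to 157 in later and 0 to 6.24 in early libraries. Y38H6C.21 and Y38H6C.23, neighbours on chromosome V, completed the group with lowest ratios of 3.13 and 3.08. At counts this small the ratio also depends on the 1 that was added to each mean.

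3 further members of the leading 12 had higher counts. tag-293 had 38.9, 255 and 515 normalized counts (lowest, median, highest) in later libraries, against 2.08 to 36.1 in early libraries. lys-4, a lysozyme gene, had 233, 484 and 1109 in later and 25.1 to 85.3 in early libraries. srh-237, named as a chemoreceptor, had 221, 294 and 399 in later and 18.8 to 58.02 in early libraries, and it lies inside ZK218.1, itself a member, which overlaps T05E12.6, also a member. In none of these did the groups overlap.

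6 members belong to B12-related metabolism, and they hold some of the highest counts of the set. acdh-1, the acyl-CoA dehydrogenase of the propionate shunt (chromosome I, 6497436 to 6499560), had 28648, 38244 and 48733 normalized counts (lowest, median, highest) in later libraries. Its early libraries were split: the 3 of generation 2 had 1397, 2514 and 2062 (lineage A, B, C), and the 3 of generation 0 had 28841, 24366 and 10364. All later libraries were therefore far above generation 2, and 24 of 25 were above every early library, but lineage A at generation 0 reached the bottom of the later range. The ratios were 1.31, 1.57 and 2.65.

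hphd-1, the shunt's hydroxyacid-oxoacid transhydrogenase, had 15930, 20636 and 26133 in later libraries, against 2960, 4422 and 5487 at generation 2 and 14885, 12576 and 9615 at generation 0. pmp-5, an ABC transporter whose human relative acts in the release of B12 from lysosomes, had 3834, 5854 and 7964 in later libraries, against 271, 358 and 399 at generation 2 and 1720, 1464 and 1132 at generation 0. Both genes showed the order of acdh-1: lowest at generation 2, higher at generation 0 and highest in all later libraries, with no overlap.

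The other 3 members had lowest ratios of 1.05 to 1.19. mtrr-1, the reductase that reactivates methionine synthase in the methionine cycle, had 3000, 4757 and 6236 in later and 1064 to 2466 in early libraries. mthf-1, the methylenetetrahydrofolate reductase that supplies the methyl group, had 11434, 13584 and 17691 in later and 4944 to 7713 in early libraries, with ratios of only 1.11, 1.05 and 1.22. mmaa-1, whose human relative protects and loads methylmalonyl-CoA mutase of the B12-dependent propionate pathway, had 4430, 5751 and 6990 in later and 1674 to 2699 in early libraries. In all 3 genes every later library exceeded every early one.

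A list of 14 B12 response genes, chosen with earlier results of these data known, holds 5 members. Most of its other genes moved the same way, which is a description and not independent evidence. Of 9 tested non-members, 8 were higher in later libraries by limma and none was lower, with a median log2 change of 0.63; over all 16714 tested genes 23.9% were higher and 24.6% lower. nhr-68, a nuclear receptor that activates the shunt genes, had 5318, 6230 and 7256 normalized counts in later and 1461 to 5503 in early libraries (log2 change 1.17 ± 0.16 SE, limma adjusted p = 1.8e-06). ech-6, an enoyl-CoA hydratase of the shunt, had a log2 change of 0.95 ± 0.14 SE and hach-1, the next enzyme, one of 0.93 ± 0.10 SE (adjusted p = 5.2e-06 and 1.4e-08 by limma). The remaining 5 that were higher were alh-8, metr-1, sams-1, mel-32 and mmcm-1, with log2 changes between 0.21 and 0.86, and nhr-10 stayed at 0.02 (adjusted p = 0.83). With generation 0 alone as the early libraries, nhr-68, ech-6 and hach-1 had log2 changes of 0.42, 0.41 and 0.56.

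**Figure D2:**
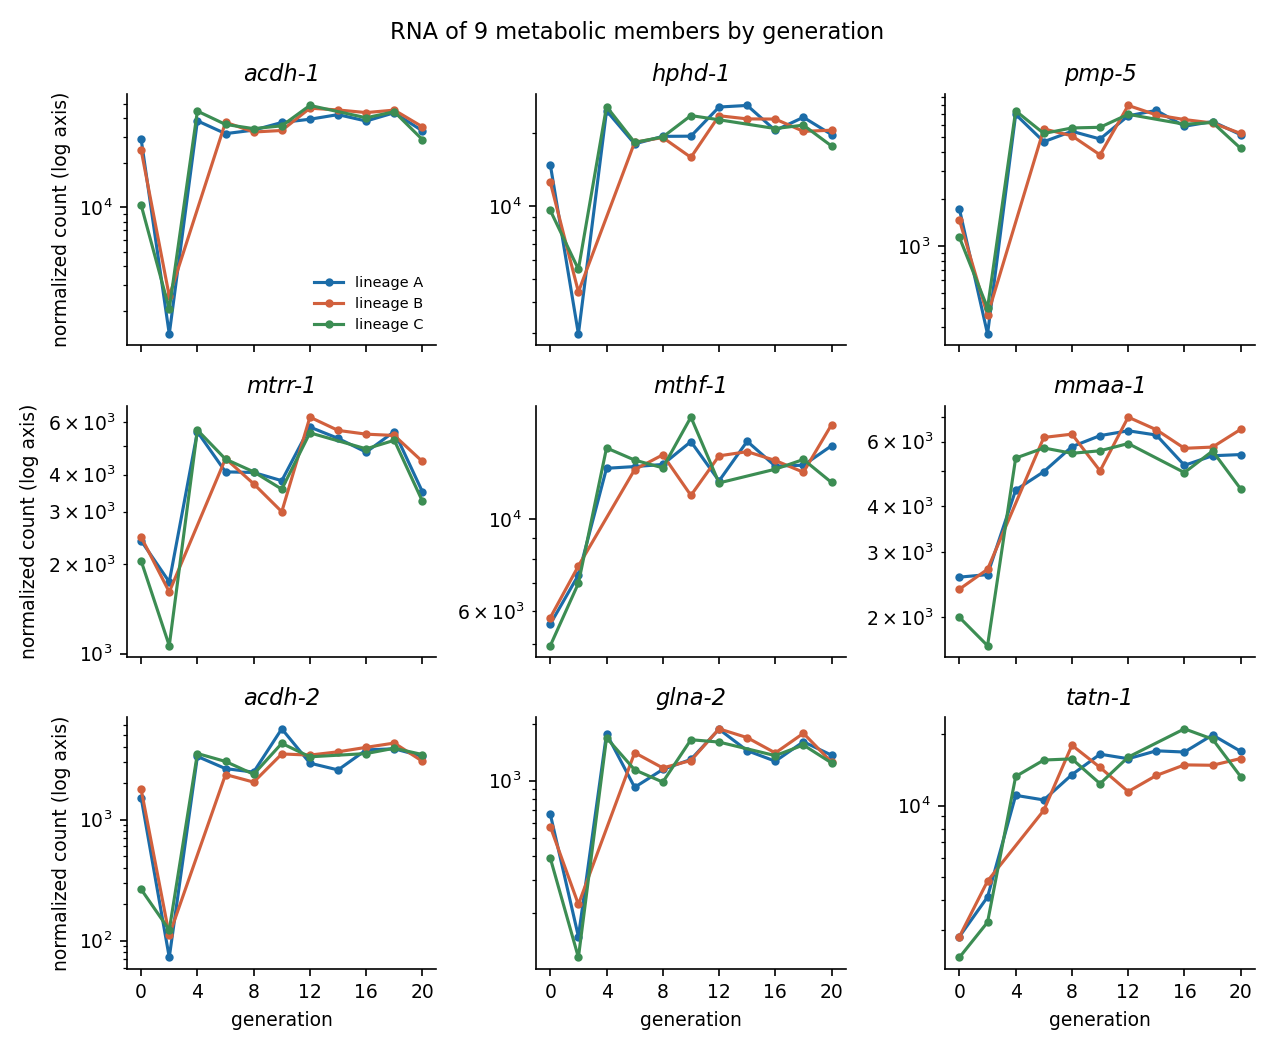
Normalized count (log axis) of 9 metabolic members by generation, 1 line for each lineage and 1 point for each library; lines cross generation 4 in lineage B and generation 14 in lineage C, which have no library. acdh-1, hphd-1, pmp-5, acdh-2 and glna-2 have their lowest points at generation 2, and in tatn-1 and mthf-1 the lowest points are at generation 0.

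5 members act on amino acids. tatn-1, tyrosine aminotransferase, had 9553, 15570 and 21081 normalized counts in later libraries, against 4118, 4806 and 3223 at generation 2 and 2802, 2801 and 2290 at generation 0. glna-2, a glutaminase, had 923, 1401 and 1878 in later libraries, against 151, 223 and 117 at generation 2 and 667, 573 and 391 at generation 0. The early order of these 2 genes was opposite, while neither overlapped with the later range. bcat-1, the branched-chain aminotransferase, had 2127, 3709 and 4548 in later and 1194 to 1522 in early libraries. The D-amino acid oxidase daao-1 and the D-aspartate oxidase ddo-2 had ratios of 1.17 to 1.74 and 1.51 to 1.73. Every later library was above every early one in all 5, a pattern of 44.1% of all members and 1.29% of all tested genes.

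4 members act on fatty acids or their control. acs-2, an acyl-CoA synthetase that prepares fatty acids for mitochondrial oxidation, had 1089, 1566 and 2466 in later and 184 to 542 in early libraries. acdh-2, another acyl-CoA dehydrogenase, had 2039, 3409 and 5615 in later libraries, against 72.8, 111 and 123 at generation 2 and 1520, 1778 and 266 at generation 0; its neighbour ins-13 overlaps it, so their reads may be shared. mxl-3, a Max-like transcription factor that represses lipases in fed worms, had 1092, 1454 and 1780 in later and 302 to 695 in early libraries, and fat-6, a stearoyl-CoA desaturase, had 408, 624.6 and 893 in later and 142.1 to 423 in early libraries. Only fat-6 overlapped, with 24 of 25 later libraries above all early ones. Of the 14 tested genes of the fasting and fatty acid oxidation list that are not members, 4 were higher and 2 lower by limma, led by lipl-4 (log2 change 1.38 ± 0.45 SE, adjusted p = 0.012) and cpt-3 (-1.05 ± 0.29 SE, adjusted p = 0.0043), neither of which passed without lineage C (0.70 and -0.77).

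Other highly counted members have unlike roles. pkg-2, a cGMP-dependent protein kinase, had 4671, 9942 and 14929 in later and 1988 to 3255 in early libraries. glp-4, the valyl-tRNA synthetase, had 7576, 13506 and 20622 in later and 4408 to 5136 in early libraries. msra-1, a methionine sulfoxide reductase, had 3926, 6415 and 13012 in later and 1403 to 2452 in early libraries, and Y37A1B.5, now called semo-1, had 4969, 6909 and 8674 in later and 2543 to 3493 in early libraries. None of the 4 overlapped between groups.

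Among genes of pathogen defence and digestion, lys-7 joined lys-4 at far lower counts (3.82, 13.5 and 31.3 in later, 0 to 3.96 in early libraries). ZK6.11, now named irg-8, had 455, 965 and 1658 in later and 148 to 223 in early libraries, and its neighbour on chromosome V, dod-19, had 1151, 2692 and 4914 in later and 474 to 825 in early libraries. Both were without overlap and highest at generation 4 in lineage A. T19C9.8 and dod-17, with ratios of 1.33 to 2.32 and 1.07 to 1.15, are the other 2 members on the list of intestinal pathogen response genes. Of the 16 tested genes on that list that are not members, 5 were higher and 2 lower by limma, among them F08G2.5 (log2 change 1.71 ± 0.39 SE, adjusted p = 0.00076) and K08D8.5 (1.09 ± 0.27 SE, adjusted p = 0.0016) on the higher side and C17H12.8 and C32H11.4 (-1.69 and -1.39) on the lower. With generation 0 alone as the early libraries, C17H12.8 and C32H11.4 no longer passed (-1.22 and -0.51), while F08G2.5 had 3.32, and without lineage B K08D8.5 no longer passed (0.65).

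The aspartyl proteases asp-13 and asp-14 are digestive enzymes of the intestine by family. asp-13 had 1828, 3158 and 4687 in later libraries, against 177, 256 and 215 at generation 2 and 1407, 1226 and 773 at generation 0. asp-14 had 285, 777 and 1169 in later and 156 to 227 in early libraries. Neither overlapped, and of the 16 tested non-members on the digestive enzyme list 6 were higher and 1 was lower by limma.

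5 members handle oxidants or iron. The glutathione S-transferases gst-26 and gst-27 lie side by side on chromosome II and had 176, 343 and 585 and 282, 459 and 867 in later libraries, against 54.1 to 139 and 61.4 to 190 in early libraries. ftn-1, a ferritin of the intestine, had 120, 236 and 372 in later and 33.1 to 98.8 in early libraries. These 3 were without overlap, as was msra-1, while the glutathione peroxidase gpx-7 (30.8 to 125 in later, 12.0 to 48.6 in early libraries) overlapped. On the list of SKN-1 and phase II detoxification genes, which holds no member, 3 of 19 tested genes were higher and 6 lower by limma.

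Transporter members include folt-2 (folate transporter family), the ammonium transporters rhr-1 and amt-4 by family, and swt-1 (sugar transporter family). folt-2 had 1089, 1788 and 3130 in later libraries, against 143, 227 and 310 at generation 2 and 1116, 1007 and 1095 at generation 0, so that generation 0 reached the bottom of the later range. amt-4 had 681, 1308 and 1840 in later and 363 to 460 in early libraries, without overlap.

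12 members carry chemoreceptor family names (4 srh, and 1 each of srd, srj, srsx, sru, srv, srw, srx and srxa). Apart from srh-237 their mean in later libraries was low, and 3 of the 12 were without overlap between groups. Of the small nspe family, 5 of 7 tested genes are members: nspe-1, nspe-2, nspe-4, nspe-5 and nspe-7, with lowest ratios of 1.003 to 2.34. nspe-1 alone among them had high counts, 1138, 2095 and 4763 in later and 473 to 1131 in early libraries.

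The members were unevenly placed on the chromosomes. Chromosome V held 93 of 229 (40.6%), against 20.4% of all tested genes, and chromosome III held 8, which is 0.316% of its tested genes against 2.73% on chromosome V. 84 members lay within 10 kb of another member, in 35 groups. The largest is on chromosome II, where nspe-4, nspe-2, nspe-1, Y38E10A.14, nspe-7 and nspe-5 lie within 16.9 kb (12612518 to 12629380). Next are C54F6.17, C54F6.3, C54F6.12 and ftn-1 in 20.2 kb of chromosome V, and abu-1, AC3.16, pqn-2 and AC3.5 in 13.2 kb of the same chromosome. 23 members overlap another member, among them acdh-1 and C55B7.3, asp-13 and F28A12.3, and oac-17 and F17B5.11, and 63 overlap some other gene of the table. Reads in such overlaps cannot be told apart.

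The higher level was already there at the first later generation collected. The median over members of log2(normalized count + 1) was 4.77 to 4.89 at generation 0 and 4.46 to 4.74 at generation 2, and 6.78 and 6.91 in the 2 libraries of generation 4. In lineage A, 215 members at generation 4 were above both early libraries of that lineage, and in lineage C 221 were. In lineage B, which starts its later series at generation 6, 221 were. All these libraries entered the means of the rule, which itself favours such counts. The share among all tested genes was not counted, so the counts are a description only. 88 members had their highest generation mean at generation 4 and 67 at generation 12. Generation 4 had libraries of lineages A and C only. In both lineages the median over members was higher at generation 12 (7.08 and 6.91) than at generation 4 (6.91 and 6.78).

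Within the later series the level moved in step between lineages. It was lowest at generations 10 (5.77 to 6.15) and 20 (6.06 to 6.27) and highest at generations 4 and 12 (6.74 to 7.08). Over the later generations that 2 lineages share, the Spearman correlation of this median was 0.81 between A and B (8 generations), 0.79 between A and C (8) and 0.89 between B and C (7), as a description of points that share generation and handling. For single members the median correlations were 0.52, 0.62 and 0.46, against 0.24, 0.48 and 0.21 over all tested genes. The heat shock sum ran the other way: it was highest at generation 2, next at generation 10 and, among the remaining later generations, highest at the median at generation 20 (70507), and it was lowest at generation 4 (7555 and 7729). At generation 0 the heat shock sum (11707 to 19515) was inside the range of the later libraries while the members were low. The maternal marker sum also ran the other way, highest at generation 0 (median 68764) and next at generation 2 (47280). Among later generations its median was lowest at generation 12 (29266) and highest at generation 20 (39101). The part of the heat shock genes or of the maternal markers in the level of the members was not tested. With generation 0 alone as the early libraries, 155 of the 229 members had a 2-fold ratio in each lineage, and with generation 2 alone 183 had. Among all tested genes 352 and 389 met the rule in these settings. Without generations 10 and 20 in the later mean, an alternative added after seeing the data, 224 of the 229 met the rule. The rule used the same libraries, so none of these counts is independent of it.

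**Figure D3:**
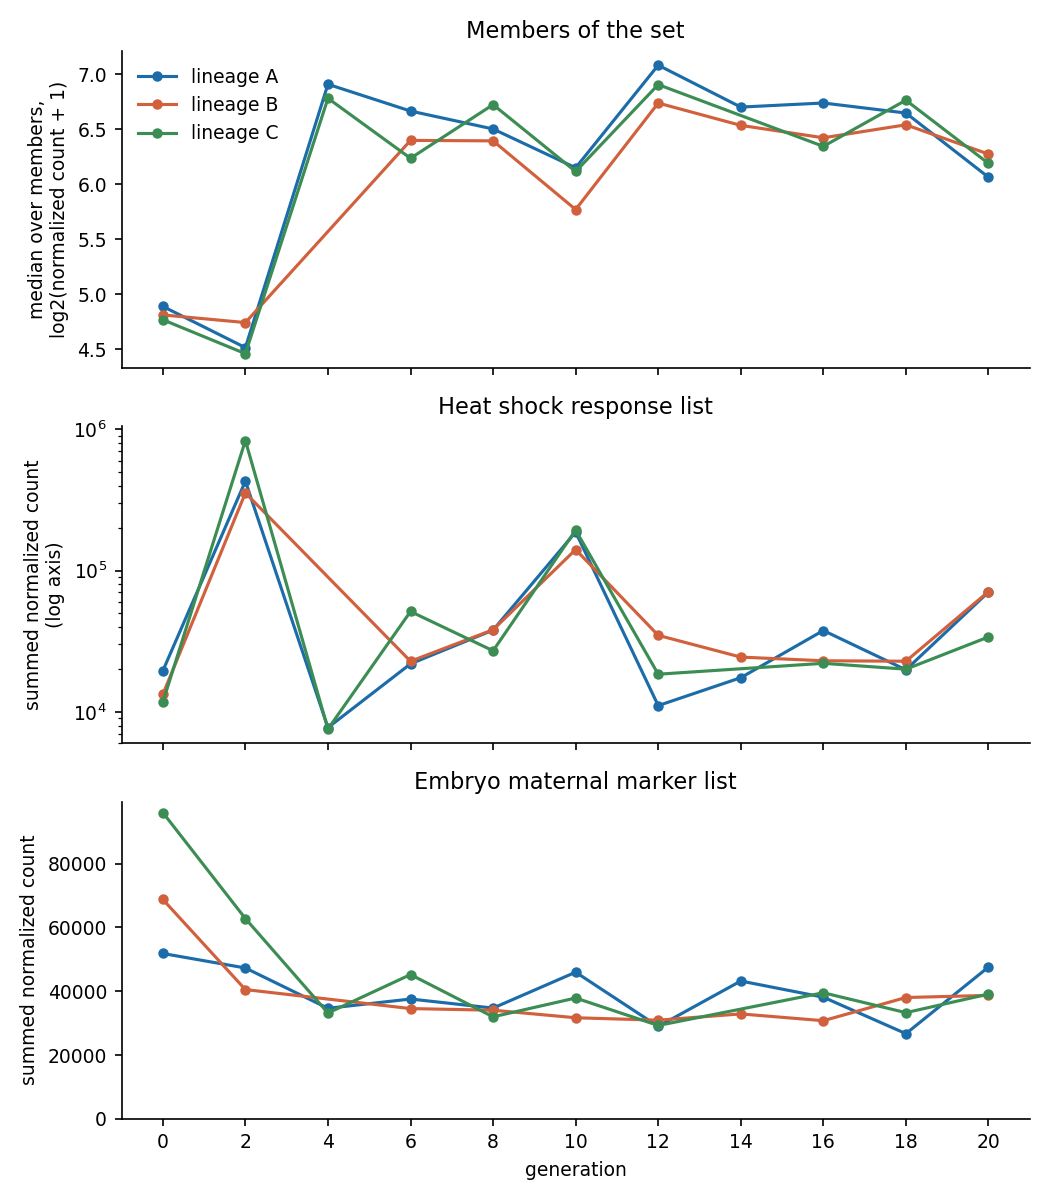
For each library, by generation and lineage (1 line each; lines cross the generations with no library), the upper panel shows the median over members of log2(normalized count + 1), the middle panel the summed normalized count of the 13 heat shock genes (log axis) and the lower panel that of the 11 maternal markers. All later libraries lie above 5.7 in the upper panel and all early ones below 5, and the heat shock sum peaks at generation 2 and generation 10.

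Some members resembled each other closely over the 25 later libraries, as a description. C25H3.10 was nearest to C35A5.3 (Spearman 0.88) and folt-2 (0.86), F32A7.8 to nspe-7 (0.84) and nspe-1 (0.83), and C49G7.3 to rhr-1 (0.83) and gst-26 (0.78). Y39B6A.84 was nearest to the overlapping Y39B6A.27 (0.80) and to C49G7.12 (0.72), and Y39B6A.27 to C33A12.19 (0.83). Over all pairs of members the median was 0.29.

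The 2 early generations can be compared with each other, but the rule used the same libraries through their mean in each lineage. A low level at either generation alone lowers that mean and can bring a gene into the set. At least 2-fold in each lineage were 183 members over generation 2 and 155 over generation 0. The shares, changes and p-values of members in this contrast are therefore not independent of the rule. How far the rule shaped them was not tested. By limma with lineage as a block, 45 members (19.7%) were lower at generation 2 than at generation 0 and 11 (4.80%) were higher, where 9.24% of all tested genes were lower and 7.85% higher. The median log2 change over members was -0.38, against -0.04 over all tested genes. All 3 generation 2 libraries lay below all 3 generation 0 libraries in 71 members and above them in 23, against 14.3% and 14.7% of all tested genes. Without the lineage block 25 members were lower and 5 higher, and with no filter on low values no gene passed. An unadjusted p under 0.05 was found for 76 members without the filter, where the share over all genes was not counted. With the filter and the block 83 of 229 members had one, as did 33.1% of all tested genes.

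drd-1 had the largest fall, to 3.12, 5.94 and 9.94 normalized counts at generation 2 (lineage A, B, C), against 151, 132 and 57.9 at generation 0 (log2 change -3.96 ± 0.52 SE, limma adjusted p = 0.0021). acdh-1 (values above) followed with -3.32 ± 0.34 SE (adjusted p = 0.0014) and acdh-2 with -3.15 ± 0.56 SE (adjusted p = 0.012). All 3 were lower in each of the 3 lineages, but acdh-2 no longer passed without lineage A (-2.55), without lineage B (-2.74) or without the block. T15D6.12 had 22.9, 44.6 and 57.5 at generation 2, against 457, 338 and 225 at generation 0 (-3.04 ± 0.40 SE, adjusted p = 0.0040), and K08D8.3 had 33.3, 60.4 and 24.3, against 268, 217 and 234 (-2.67 ± 0.29 SE, adjusted p = 0.00077). In later libraries drd-1 had 124 to 352 and K08D8.3 165 to 505, ranges that reach down into those of generation 0.

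4 of the 6 B12-related members fell at generation 2: acdh-1, pmp-5 (-2.06), hphd-1 (-1.55) and mtrr-1 (-0.67), with adjusted p of 0.0014, 0.00071, 0.010 and 0.019 by limma. mthf-1 (0.44, adjusted p = 0.057) and mmaa-1 (-0.02, adjusted p = 0.95) did not pass. asp-13 (-2.36), folt-2 (-2.31), glna-2 (-1.74), ftn-1 (-1.26), rhr-1 (-1.04) and gst-27 (-0.99) fell as well, with adjusted p between 0.00038 and 0.019.

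The 11 members that were higher at generation 2 were led by F43C1.7, with 29.1, 29.7 and 38.7 normalized counts at generation 2, against 6.46, 1.93 and 6.56 at generation 0 (2.60 ± 0.49 SE, limma adjusted p = 0.0087). Y39A3A.4 (2.28 ± 0.61 SE), B0205.13 (1.72 ± 0.42 SE), fipr-26 (1.71 ± 0.30 SE) and Y38E10A.14 (1.26 ± 0.23 SE) followed, with adjusted p of 0.034, 0.025, 0.0065 and 0.0078. acs-2 and tatn-1 were also higher (1.001 and 0.61, adjusted p = 0.017 and 0.021). Y39A3A.4 no longer passed without lineage A (2.14) or B (2.29), tatn-1 without lineage B (0.52) or the block, and B0205.13 without the block. The 6 libraries are those with and without the high heat shock sum, and the part of that difference in these changes cannot be told apart from generation.

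**Figure D4:**
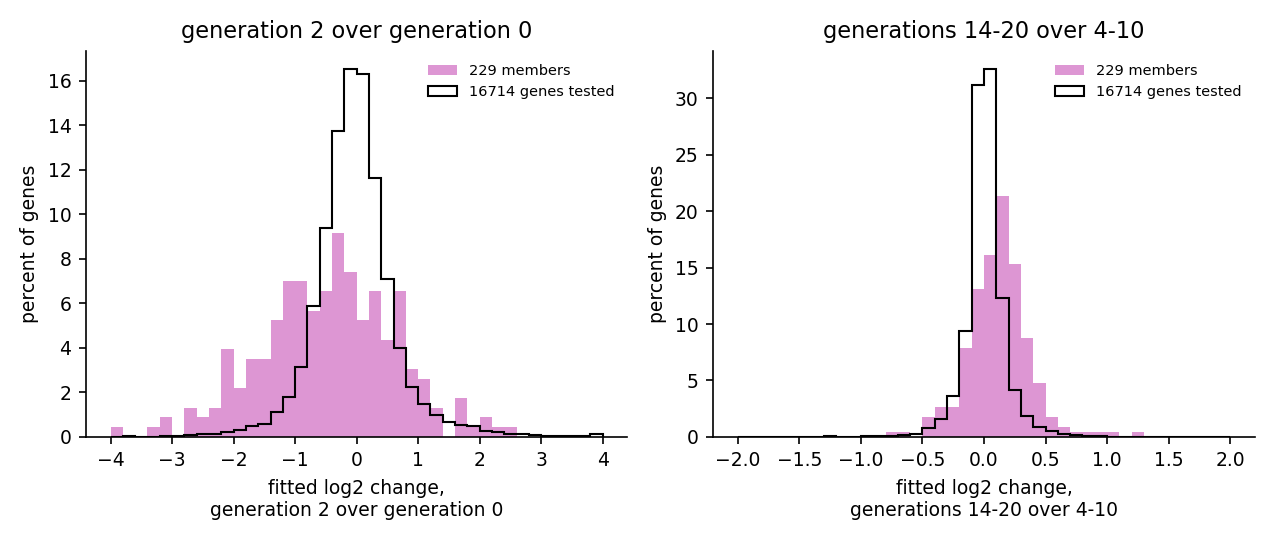
Percent of genes (y axis) by fitted log2 change (x axis, values beyond the axis drawn in the end bins) for the 229 members (filled) and all 16714 tested genes (line), at left for generation 2 over generation 0 and at right for generations 14 to 20 over 4 to 10. The members' medians are -0.38 and 0.11, and those of all tested genes are -0.04 and 0.01.

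Between the last and the first part of the later series, no member's change passed the test. Between generations 14 to 20 and 4 to 10 (11 libraries each, generation 12 left out), 0 of 229 members and 0 of 16714 genes (0.0%) passed in limma, and edgeR on whole reads called 0 as well. At an unadjusted p under 0.05 there were 20 members (8.73%), 16 of them higher, against 3.72% of all tested genes. The fitted change was positive in 163 members and its median was 0.11, against 0.01 over all tested genes. tatn-1 averaged 16629 ± 2560 normalized counts in generations 14 to 20 and 13690 ± 2652 in generations 4 to 10 (SD, n = 11 each), and acs-2 averaged 1453 ± 211 and 1876 ± 419, both with a limma adjusted p of 0.99. In the 6 B12-related members the log2 change lay between 0.00 and 0.20. Generations 14 to 18 against 4 to 8, which leaves out the generations of high heat shock sum, was added after seeing the data. There 0 members and 0 of 16714 genes passed in limma, and the smallest adjusted p of a member was 0.12. An unadjusted p under 0.05 was found for 42 members, but the share over all tested genes was not counted in this setting.

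The lineages were not shown to differ in that contrast. The limma test of the lineage by period term called 0 members and 0 of all genes (0.0%), with 5 members at an unadjusted p under 0.05, where 2.26% of all tested genes had one; edgeR called 0 and had 9. In a few members 1 library stood far above the rest. R08F11.4 had 2474 normalized counts in lineage A at generation 10, against a median of 73.7 over later libraries, and 14.9 to 35.1 in early libraries. tbb-6, a beta-tubulin gene, reached 554 in lineage A at generation 16, against a median of 33.3, and only 14 of its 25 later libraries exceeded all early ones. pals-4 and pals-3, neighbours on chromosome I, reached 167 and 76.5 in that same library and were at 0 in both libraries of generation 4. Of these 4 only pals-3 falls under the threshold in a lineage without that library.

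The difference in RNA had no counterpart that passed the test in accessible chromatin. Of 31618 regulatory elements measured by ATAC-seq, 303 had their nearest annotated start at 1 of 143 members, and 302 of them were tested, at 2995631 to 12251653 reads in later and 4311349 to 9472742 in early libraries. None passed in limma (1 of all 31498 tested elements did, 0.00317%) and none in edgeR. An unadjusted p under 0.05 was found for 17 (5.63%), against 6.45% of all elements. Of these 17, 14 were higher in later libraries, a direction that was not counted over all elements. The median log2 change was 0.02 over the members' elements and -0.01 over all elements, and the members' elements ranged from -0.33 to 0.49. With generation 0 alone as the early libraries none passed either, and these medians were 0.06 and -0.01. The element with the smallest p lies just before the start of R08F11.4 (98.2 ± 19.9 in later and 74.1 ± 7.07 in early libraries, SD, n = 25 and 6; limma adjusted p = 0.40).

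The same held for elements of members described above. The element 500 bases into C25H3.10 averaged 111 ± 16.0 in later and 105 ± 15.2 in early libraries (SD, n = 25 and 6), a log2 change of 0.08 ± 0.10 SE. That at the start of acdh-1 averaged 214 ± 24.6 in later and 189 ± 24.2 in early libraries (0.18 ± 0.09 SE, limma adjusted p = 0.77), and that at the start of pmp-5 averaged 247 ± 50.1 and 213 ± 20.6 (0.19 ± 0.12 SE, adjusted p = 0.85).

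**Figure D5:**
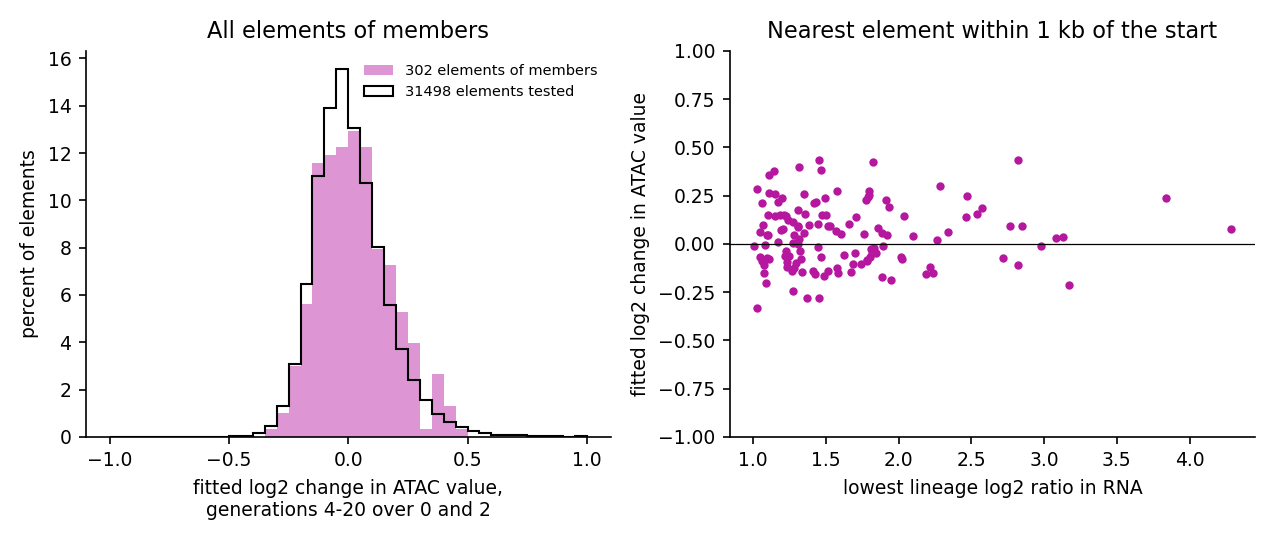
Left, percent of regulatory elements (y axis) by fitted log2 change in ATAC value of later over early libraries (x axis, values beyond the axis drawn in the end bins), for the 302 tested elements of members (filled) and all 31498 tested elements (line). Right, for 132 members, the change of the nearest element within 1 kb of a start (y axis) against the lowest lineage log2 ratio in RNA (x axis); 76 of the 132 lie above 0, and none beyond 0.5.

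Small RNA data covered few members. Antisense 22G-RNAs, the secondary small RNAs that guide worm Argonaute proteins to transcripts, were listed for 27 members, and 14 had a mean of at least 10, at 106897 to 1504610 reads in later and 733690 to 1611500 in early libraries. None of the 14 passed in limma, where 2.36% of all 6180 tested genes were higher and 0.696% lower. At an unadjusted p under 0.05 there were 3 of the 14, against 12.7% of all tested genes. By edgeR on whole reads 1 of the 14 passed, and 254 of all 6180. F47E1.1 came nearest, with 33.1 ± 8.80 in later and 22.2 ± 6.08 in early libraries (SD, n = 25 and 6; log2 change 0.56 ± 0.17 SE, limma adjusted p = 0.057). The median change was -0.04 over the 14 and -0.03 over all tested genes, and those of mmaa-1, mtrr-1, mthf-1 and glp-4 were -0.20, -0.12, -0.21 and 0.04.

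Of 18 tested intracellular pathogen response genes, none a member, 4 were higher and none lower by limma, although pals-3 and pals-4 of the same gene family are members. Of 16 tested DAF-16 targets, none a member, 8 were higher (sod-3 1.07, fat-5 1.07 and sod-5 1.001 on the log2 scale) and 4 lower (nnt-1 -0.41, ctl-1 -0.31 and ctl-3 -0.30), but sod-5 did not pass without lineage A or by edgeR (0.73 in both), and ctl-1 and ctl-3 had 0.11 and 0.10 with generation 0 alone as the early libraries. Of 11 tested hypoxia and hydrogen sulfide genes beside the member semo-1, 4 were higher and none was lower. Replication-dependent histone genes went the other way, with 13 of 16 lower and 2 higher. Of 9 tested epidermal antimicrobial peptide genes 1 was higher and 1 lower, of 10 genes of the organelle unfolded protein responses 3 were higher and 2 lower, of 9 metal response genes 2 were higher and 3 lower, and of the 13 heat shock genes 3 were higher and none lower; none of these is a member. The median log2 change of the heat shock genes was nevertheless -1.33, and their summed level had a median of 24410 in later and 187190 in early libraries.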

How the data were processed

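For each of 3 assays (RNA, ATAC and small RNA sequencing), 31 libraries were analysed, from the same embryo collections except in lineage C, as given above. The authors used Bowtie2 (WS252) for RNA and ATAC reads and BEDTools for their counts on coding genes or on published regulatory elements, without strand, and for small RNAs used Bowtie (ce11) and summed antisense 22G reads per gene; program versions are not given in the sources used here. The deposited values are a normalized signal: counts scaled by the authors with DESeq2 size factors, in which RNA and ATAC counts of 0 stand as 1 and were set back to 0. All values (100%, tolerance 0.001 reads) were whole multiples of 1 read's worth, so reads were recovered for edgeR and for depth. Each ATAC element was given to the coding gene whose annotated start lay closest (Ensembl 115, WBcel235; start coordinates are 1-based).

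Tests used limma 3.58.1 (trend, robust, R 4.3.3) on log2(value + 1) over all features with a mean of at least 10, with lineage as a block, p-values being adjusted over all features by Benjamini-Hochberg (threshold 0.05), and were tested on simulated data. A lineage is one line of descent, so the block follows the labels. Alternatives were a pseudocount of 0.5 or 5, no filter, TMM scaling, edgeR 4.0.16 quasi-likelihood on recovered reads, no block and each lineage left out. Members, gene lists and tests were chosen with earlier results of these data known. Genes named are the 12 members with the largest lowest ratio, the 8 with the highest later mean and the 3 nearest each side of the threshold. Up to 5 each way are named per contrast other than later against early RNA libraries, and up to 3 each way per list. Close neighbours are named too, as are members of named pathways or families chosen after their values were seen. In gene lists a gene can stand on more than 1 list; 12 mitochondrial genes of a list were not analysed here.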

Additional observations from a re-analysis of the deposited data

Results flagged for a closer look

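Among 30 values checked for a library standing apart from the other early libraries, 1 was marked, and chance marks about 1 in 20. Y39B6A.84 had 1.09 normalized counts in lineage C at generation 0 and 0 in the other 5 early libraries, which is a single read. Differences between lineages were tested only by the lineage by period term within the later generations, and no member passed.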

How the results depend on the processing

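The number of members moved with the early libraries chosen: 352 genes met the rule with generation 0 alone and 389 with generation 2 alone, sharing 155 and 183 with the 229. It lay between 183 and 270 under the other settings of pseudocount, level filter, average, scaling and later generations, and between 296 and 334 with a lineage left out. In generation 2 against generation 0, 56 members were called with the lineage block (45 lower, 11 higher). Without the replicate block 30 were called (25 lower, 5 higher), and with no filter on low values 0, 0 and 0, where all tested genes gave 2857, 717 and 0 calls under these 3 settings; with a lineage left out the calls were 45 to 64 (35 to 49 lower, 6 to 15 higher), with 6 higher without lineage B. The 22G-RNA fit called 0 members except with edgeR, which called 1. ATAC, the comparison of generations 14 to 20 with 4 to 10 and the lineage by period term gave 0 under every alternative run. Of 54 list genes, ckb-2, ctl-1 and ctl-3 changed sign with generation 0 alone as the early libraries (-0.12, 0.11 and 0.10), and 16 others kept their sign but no longer passed; 13, 11 and 15 no longer passed without lineage A, B or C, and 0 to 5 under each other setting. The causes were not tested. Generations 0 and 2 rest on 3 libraries each. Small counts limit the ratios of the 118 members with a later mean under 100.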
